A study of Mus musculus with 8 samples.

Results

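The enzymes described here make, reduce or inactivate prostaglandins and leukotrienes, the lipid mediators derived from arachidonic acid. The 10 genes listed for them are Ptgs1, Ptges, Ptges2, Ptges3, Ptgr1, Hpgd, Alox5, Alox5ap, Lta4h and Ltc4s, of 18193 genes with a single-gene probe set on the array. Ptgr1 was chosen by its difference between Dactolisib and DMSO in these data, and the others were listed around it, so its Dactolisib values are given below as a description without a test. Of the 10 genes, 8 had at least 1 probe set that the annotation ties to that gene alone, 13 probe sets in all. Ptgs1 had none, and the 2 probe sets of Ptges3 were shared with the pseudogene Ptges3-ps, so neither gene was read.

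The cells were granulocytic myeloid-derived suppressor cells (Gr-MDSCs), immature myeloid cells resembling neutrophils that dampen T cell responses, taken from prostate tumors by magnetic sorting for CD11b+ Ly6G+ Ly6C low cells. They came from male CPPSML mice, which carry PB-Cre+, the floxed alleles Smad4L/L, p53L/L and PtenL/L, and the reporters LSL-LucL/+ and mTmGL/+, labelled 12 to 16 weeks old, which had been castrated once the tumor measured 150 mm3 and then fed an enzalutamide diet for 4 weeks. PB-Cre is driven by the probasin promoter, which is active in prostate epithelium, so in all 3 groups the deletions lie in the tumor epithelium and not by design in the Gr-MDSCs. Right after isolation the cells received 0.1 uM Dactolisib, an inhibitor of PI3K and mTOR (2 arrays, replicates 1 and 2), 0.1 uM Dasatinib, an inhibitor of Src and Abl family tyrosine kinases (2 arrays, replicates 1 and 2), or the solvent DMSO (4 arrays, replicates 2 to 5), each for 6 h. The sources used here do not say whether replicates came from separate mice, so p-values reflect the variation among these samples alone, and it may be technical.

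In neutrophils arachidonic acid is released from membrane lipids by phospholipase A2 and then enters either of 2 routes. The cyclooxygenases Ptgs1 and Ptgs2 turn it into prostaglandin H2, from which the synthases of the Ptges family make prostaglandin E2. Alox5, with its helper protein Alox5ap, turns it into leukotriene A4, which Lta4h hydrolyses to the neutrophil attractant leukotriene B4 and Ltc4s joins to glutathione. Hpgd oxidises prostaglandins, Ptgr1 reduces the products of Hpgd, and Ptgr1 also oxidises leukotriene B4.

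The 8 arrays were clustered by the similarity of their signals and cut into 3 sets, a number given to the clustering. Each set held DMSO and 1 or both drugs, and the drugs were compared with DMSO both with and without these sets. The p-values within sets take the sets as known, although the sets came from these same signals. Set A held Dactolisib 1, DMSO 2 and DMSO 4, set B held Dactolisib 2, Dasatinib 2 and DMSO 3, and set C held Dasatinib 1 and DMSO 5. Over the tested probe sets the lowest Pearson correlation within a set was 0.987 and the highest between sets 0.98. The clustering used these correlations, so they are no separate support for the sets. The 11 measured epithelial marker genes, all above background on all 8 arrays, summed to a log2 signal of 15.41 and 15.43 in set C, 12.96 to 13.19 in set A and 10.67 to 10.99 in set B. Granulocyte markers, 14 of 14 above background on all arrays, summed to 15.87 to 16.28 on all 8 arrays. Seminal vesicle and prostate secretory genes summed to 12.70 on Dasatinib 1 and 14.52 on DMSO 5, and to 6.05 to 6.26 on the other 6 arrays. The difference between the 3' and the 5' control probe sets, a measure of RNA quality, ranged over the 8 arrays from -0.19 to -0.04 for Gapdh and from 0.03 to 0.15 for Actb on the log2 scale.

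Ptgr1 and Alox5 were the 2 listed genes whose signals lay furthest below the DMSO arrays of their own set on the Dactolisib arrays. The 250 bases before the 1 start site that the RefSeq promoter table (GRCm38.p6) gives for each are shown because these genes moved in the same direction there, with matches to GGGCGG, the core of the Sp1 site, or to its reverse complement in capitals.
Ptgr1, chr4:58987079-58987328, minus strand: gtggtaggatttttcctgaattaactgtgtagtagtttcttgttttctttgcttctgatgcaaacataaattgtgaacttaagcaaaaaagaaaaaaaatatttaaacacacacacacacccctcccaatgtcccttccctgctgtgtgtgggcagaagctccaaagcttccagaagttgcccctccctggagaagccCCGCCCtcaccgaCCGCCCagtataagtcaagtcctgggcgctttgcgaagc
Alox5, chr6:116461179-116461428, minus strand: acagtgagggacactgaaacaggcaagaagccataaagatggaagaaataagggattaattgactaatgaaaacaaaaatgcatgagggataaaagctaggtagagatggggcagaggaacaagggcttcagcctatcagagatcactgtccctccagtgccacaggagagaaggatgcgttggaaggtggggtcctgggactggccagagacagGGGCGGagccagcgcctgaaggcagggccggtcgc
The Ptgr1 window holds 2 matches, both on the opposite strand, within the last 52 bases before the start, and the Alox5 window holds 1 match, on the gene's own strand, 35 to 30 bases before the start. GGGCGG on either strand was present in 32.7% of 32851 RefSeq promoter windows of this length. The core of the antioxidant response element, TGACNNNGC on either strand, was present in 10.2% of all windows and in neither of these. Of the 9 listed genes with a window in the table, 5 held GGGCGG and 0 held TGACNNNGC. Alox5ap was not in the table. A match is a description of these letters only. RefSeq places the gene Ptgr1 at bases 58965590 to 58987131 of chromosome 4 and Alox5 at bases 116410071 to 116461178 of chromosome 6. The table's start of Ptgr1 lies inside this outer bound of the gene, so the end of its window, with both matches, falls within the gene span.

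Which of the enzymes were expressed in these samples was read against a background level set, on each array, at the 95th percentile of 77 probe sets of olfactory and vomeronasal receptor genes. This level was a log2 signal of 4.81 to 5.19, and on each array 43.9% to 50.8% of all probe sets were above it. Ptges, Ptges2, Ptgr1, Alox5, Alox5ap, Lta4h and Ltc4s, 7 of the 8 genes read, had a probe set above it on all 8 arrays, and the same 7 genes passed with the 99th percentile. Hpgd, the prostaglandin dehydrogenase, was above it on no array. Its 2 probe sets had log2 signals of 2.73 to 3.07 and of 3.49 to 4.02 over the 8 arrays, and neither was tested. The third probe set of Lta4h was also above background on no array, at 2.67 to 3.40. Signals of different probe sets are not compared with each other here, since probes differ in how well they bind. The arrays read bulk RNA, and all 11 measured epithelial markers were above background on all 8 of them. A signal above background therefore does not place a transcript in the Gr-MDSCs.

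**Figure D1:**
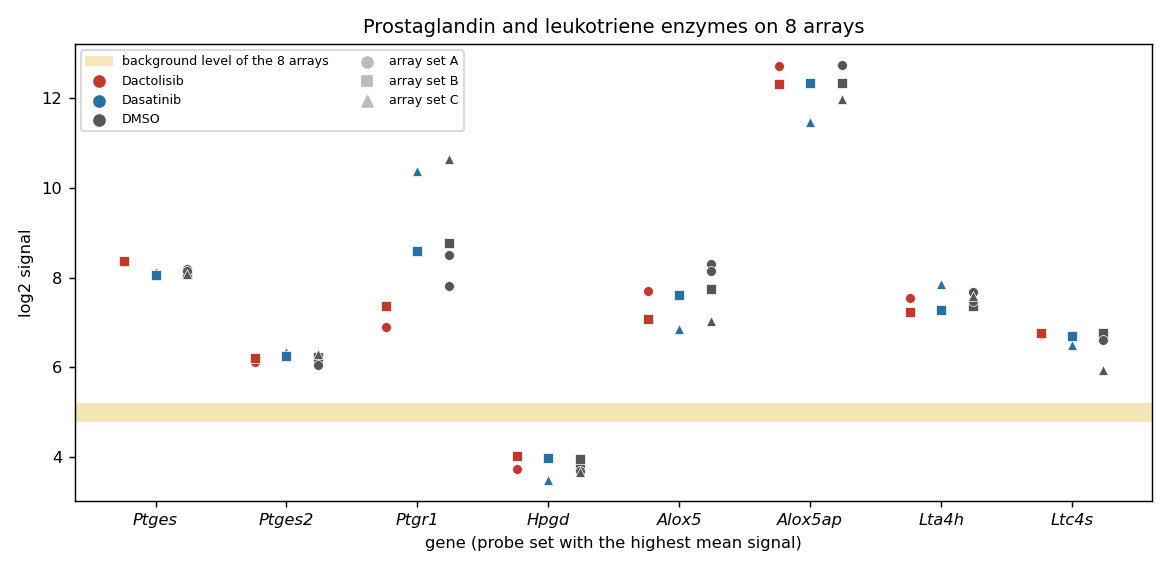
Log2 signal (y axis) of the 8 genes read (x axis), each by its probe set with the highest mean, with 1 point per array, coloured by treatment and shaped by array set. The band is the range of the background level, 4.81 to 5.19, and Hpgd is the gene below it, while Ptgr1 spreads from 6.91 on Dactolisib 1 to 10.65 on DMSO 5.

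Ptgr1, the reductase of prostaglandin and oxidase of leukotriene B4 metabolism, was lowest on both Dactolisib arrays. Its log2 signal was 6.91 and 7.38 on Dactolisib 1 and 2, 10.37 and 8.60 on Dasatinib 1 and 2, and 7.81, 8.78, 8.50 and 10.65 on DMSO 2 to 5. Both Dactolisib arrays lay below all 4 DMSO arrays and below both Dasatinib arrays, and the set C arrays were the 2 highest. Against the DMSO arrays of its own set, Ptgr1 lay at a log2 difference of -1.25 on Dactolisib 1 and -1.40 on Dactolisib 2. The 2 DMSO arrays of set A differed by -0.68 (DMSO 2 minus DMSO 4). The fitted Dactolisib difference was -1.79 ± 0.75 (SE) without the sets and -1.31 ± 0.18 within them, a fold of 0.402. These values are a description, because this contrast chose the gene.

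The Dasatinib contrast did not choose Ptgr1, but it uses the same 4 DMSO arrays as the contrast that did. Its values are therefore not free of that choice. Under Dasatinib Ptgr1 lay -0.27 from DMSO 5 on Dasatinib 1 and -0.18 from DMSO 3 on Dasatinib 2. The difference from DMSO did not pass the limma test either within array sets (log2 -0.22 ± 0.21 SE, adjusted p = 0.869) or without them (0.55 ± 0.87, adjusted p = 1). The sign differs between the 2 fits, and the groups overlapped, with the Dasatinib arrays between DMSO 4 and DMSO 5. Set B is the only set that holds both drugs, and there Ptgr1 was 7.38 on Dactolisib 2 and 8.60 on Dasatinib 2, with DMSO 3 at 8.78.

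Ptgr1 differed between the sets as well as between the treatments. On DMSO arrays it was 7.81 and 8.50 in set A, 8.78 in set B and 10.65 in set C, and the epithelial sum on the same arrays was 13.19, 13.15, 10.83 and 15.43. On the Dactolisib arrays the epithelial sum lay -0.22 and -0.16 from own-set DMSO on the log2 scale, with 6 of 11 genes lower on both arrays. The granulocyte sum lay -0.06 and -0.05 from it, with 10 of 14 lower on both, and the monocyte and macrophage sum -0.03 and -0.05, with 10 of 12 tested genes lower on both and medians of -0.22 and -0.11. Among all genes tested 35.4% were lower on both arrays. Within array sets 2 of 11 epithelial, 2 of 14 granulocyte and 3 of 12 monocyte and macrophage genes were called lower, against 4.66% of all genes. The RNA quality differences moved by 0.01 and 0.02 for Gapdh and by 0.05 and 0.07 for Actb on the same arrays. The part of these shifts in the Ptgr1 values was not tested. In bulk RNA fewer cells of a type and less RNA per cell cannot be told apart.

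The 5 genes with the pattern closest to Ptgr1, by the Pearson correlation over the 8 arrays after each set's mean was taken off, were Pla2g7 (0.999), 2610001J05Rik (0.998), Kansl2 (0.997), Dnaja3 (0.997) and Cyb5a (0.996). These correlations were picked as the highest over all genes tested. They are a description over arrays that share their set, and no test was made of them. The Dactolisib differences of the 5 genes within sets were smaller than that of Ptgr1, at log2 -0.15, -0.20, -0.25, -0.36 and -0.89. Ptgr1 was chosen by this difference, so nothing is read from its size beside theirs. The difference of Pla2g7 (-0.15 ± 0.08 SE) did not pass (limma adjusted p = 0.287). Pla2g7 encodes the enzyme that degrades platelet-activating factor, and Cyb5a encodes cytochrome b5, an electron carrier of lipid metabolism. Without the centring Pla2g7 gave -0.495 and Cyb5a 0.943.

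Alox5, the 5-lipoxygenase that opens the leukotriene route, was lower on each Dactolisib array than on the DMSO arrays of its set. Its log2 signal was 7.71 and 7.09 on Dactolisib 1 and 2, 6.85 and 7.62 on Dasatinib 1 and 2, and 8.30, 7.74, 8.16 and 7.04 on DMSO 2 to 5. Across the sets the groups overlapped, because DMSO 5 of set C was below both Dactolisib arrays. Within sets Alox5 lay -0.51 and -0.65 from DMSO on Dactolisib 1 and 2, while DMSO 2 and DMSO 4 differed by 0.14. Without the sets the difference was -0.41 ± 0.38 (SE) and did not pass (limma adjusted p = 0.788), as was the case for each of the 30024 probe sets tested in that fit (0% called). Within array sets Alox5 fell to 0.674 of DMSO (log2 -0.57 ± 0.09, limma adjusted p = 0.0162).

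That call rests on few arrays. It was lost when Dactolisib 1 (adjusted p = 0.17), Dactolisib 2 (0.135) or DMSO 3 (0.135) was left out of the limma fit within sets, with log2 differences of -0.65, -0.51 and -0.51. Leaving out Dactolisib 2 or DMSO 3 is the same fit for this difference, since either takes set B out of it. The adjusted p stayed below the threshold without DMSO 2 (0.00343) or DMSO 4 (0.0149). Each of these fits leaves 1 residual degree of freedom, so its p-value rests on little information about the spread. DMSO 5, alone in its set here, does not enter the difference. Within array sets 1260 of 30024 probe sets were called lower under Dactolisib, or 4.2%, and 659 were called higher, or 2.19%. By the best probe set of each gene 663 of 14237 genes were called lower, or 4.66%, and among the 7 enzymes tested these held Alox5 and the gene Ptgr1 that the contrast had chosen, so nothing is read from the share of the enzymes.

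Under Dasatinib Alox5 lay -0.20 from DMSO 5 and -0.12 from DMSO 3. The fitted difference was -0.16 ± 0.10 within sets (limma adjusted p = 0.85) and -0.57 ± 0.41 without them (adjusted p = 1), in a comparison where 0 of 30024 probe sets were called with or without the sets (0%). The 2 drugs differed by -0.45 ± 0.11 (Dactolisib minus Dasatinib, SE) within sets, which did not pass the test of the difference itself (limma adjusted p = 0.151, 0% of all probe sets called), and by 0.17 ± 0.46 without the sets. A lower Alox5 signal under Dactolisib than under Dasatinib is therefore not shown by these arrays.

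**Figure D2:**
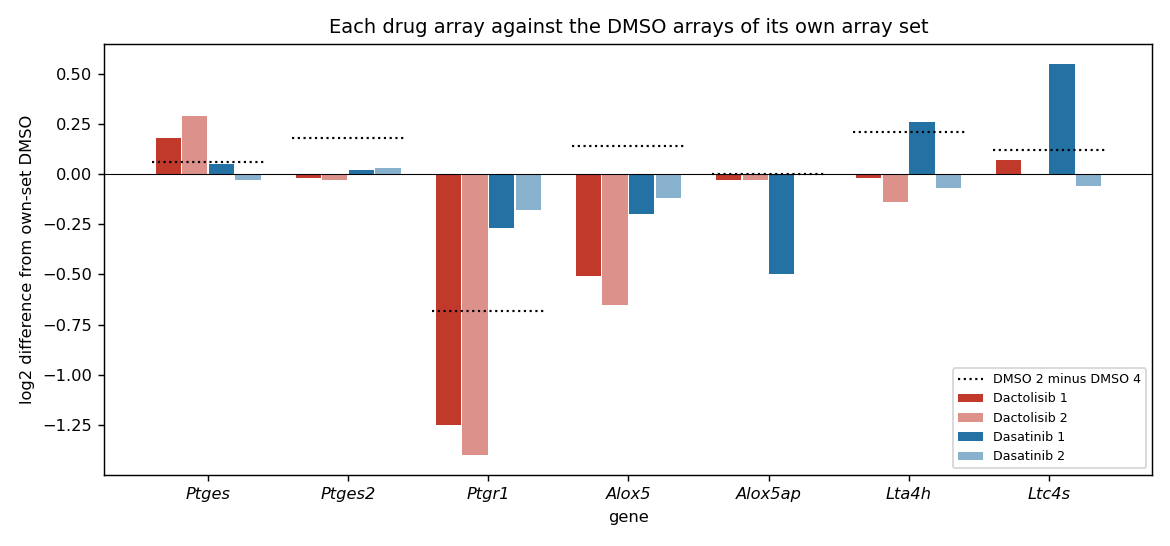
Log2 difference (y axis) between each drug array and its own-set DMSO mean for the 7 expressed enzymes (x axis), with 1 bar per drug array. The dotted lines give DMSO 2 minus DMSO 4, and the Dactolisib bars of Ptgr1 (-1.25 and -1.40) and Alox5 (-0.51 and -0.65) are the longest ones of that drug.

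Alox5ap, the membrane protein that presents arachidonic acid to Alox5, had log2 signals of 12.72 and 12.31 under Dactolisib, 11.48 and 12.34 under Dasatinib, and 12.75, 12.34, 12.75 and 11.98 on DMSO 2 to 5. Each Dactolisib array lay -0.03 from its own-set DMSO, and the fit within sets gave -0.03 ± 0.08 (SE, limma adjusted p = 0.849), against 0.06 ± 0.26 without the sets (0.946). Dasatinib 1 was the lowest array, -0.50 from DMSO 5, while Dasatinib 2 was equal to DMSO 3 at 2 decimals. The Dasatinib difference of Alox5ap was -0.25 ± 0.14 within sets (adjusted p = 0.85) and -0.55 ± 0.33 without them (1), and neither passed.

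The 2 enzymes that share leukotriene A4 as substrate showed no call under either drug. Lta4h, the hydrolase, had log2 signals of 7.56 and 7.23 under Dactolisib, 7.85 and 7.29 under Dasatinib, and 7.69, 7.36, 7.48 and 7.59 on DMSO 2 to 5. Its differences within sets were -0.07 ± 0.09 (SE) for Dactolisib (limma adjusted p = 0.704) and 0.09 ± 0.13 for Dasatinib (0.913), and the other tested probe set, at 5.44 to 6.08, gave -0.02 ± 0.09 and -0.09 ± 0.14. Without the sets the first Lta4h probe set gave -0.14 ± 0.15 for Dactolisib (0.798) and 0.04 ± 0.19 for Dasatinib (1), and the second 0.03 ± 0.13 and -0.10 ± 0.19. Ltc4s, the leukotriene C4 synthase, had 6.75 and 6.77 under Dactolisib, 6.50 and 6.71 under Dasatinib, and 6.74, 6.77, 6.62 and 5.95 on DMSO 2 to 5. Its low DMSO 5 signal puts Dasatinib 1 at 0.55 above its set, against -0.06 for Dasatinib 2. The Ltc4s differences within sets were 0.04 ± 0.08 for Dactolisib (adjusted p = 0.833) and 0.24 ± 0.15 for Dasatinib (0.85), and without the sets 0.24 ± 0.25 (0.793) and 0.08 ± 0.26 (1).

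Ptges, the inducible prostaglandin E2 synthase, was the enzyme whose signals lay above own-set DMSO on both Dactolisib arrays, in all 3 of its probe sets. The probe set with the highest signal read 8.35 and 8.38 under Dactolisib, 8.13 and 8.06 under Dasatinib, and 8.20, 8.09, 8.14 and 8.08 on DMSO 2 to 5. Both Dactolisib arrays were above all other arrays in this probe set, by less than a log2 of 0.3 against own-set DMSO (0.18 and 0.29). The differences were 0.23 ± 0.08, 0.32 ± 0.09 and 0.24 ± 0.09 (SE) for the 3 probe sets within sets, and 0.24 ± 0.10, 0.24 ± 0.13 and 0.28 ± 0.12 without them. None of them passed (limma adjusted p = 0.14, 0.0696 and 0.186, and 0.775 or 0.776 without the sets). Under Dasatinib the 3 differences were 0.01 ± 0.10, -0.07 ± 0.10 and 0.08 ± 0.12 within sets, with adjusted p of 0.92 or above, and -0.03 ± 0.11, 0.03 ± 0.15 and 0.07 ± 0.13 without them (adjusted p = 1).

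Ptges2, a second prostaglandin E synthase of the membrane, read 6.13 and 6.20 under Dactolisib, 6.34 and 6.26 under Dasatinib, and 6.23, 6.23, 6.05 and 6.31 on DMSO 2 to 5. These ranges overlap, and its differences within sets were -0.02 ± 0.09 (SE, limma adjusted p = 0.912) for Dactolisib and 0.03 ± 0.11 (0.969) for Dasatinib. Without the sets they were -0.04 ± 0.11 (0.901) and 0.09 ± 0.12 (1). By the best probe set of each gene, 5 of the 7 enzymes were below own-set DMSO on both Dactolisib arrays, among them Ptgr1, against 35.4% of all 14237 genes, and 1 was above on both, against 31.6%. In 3 of those 5, Ptges2, Alox5ap and Lta4h, the larger of the 2 differences was -0.03, -0.03 and -0.14. The median over the 7 enzymes within sets was -0.03, against 0.00 over all genes tested. A value that misses the threshold does not show that the transcript stayed the same.

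**Figure D3:**
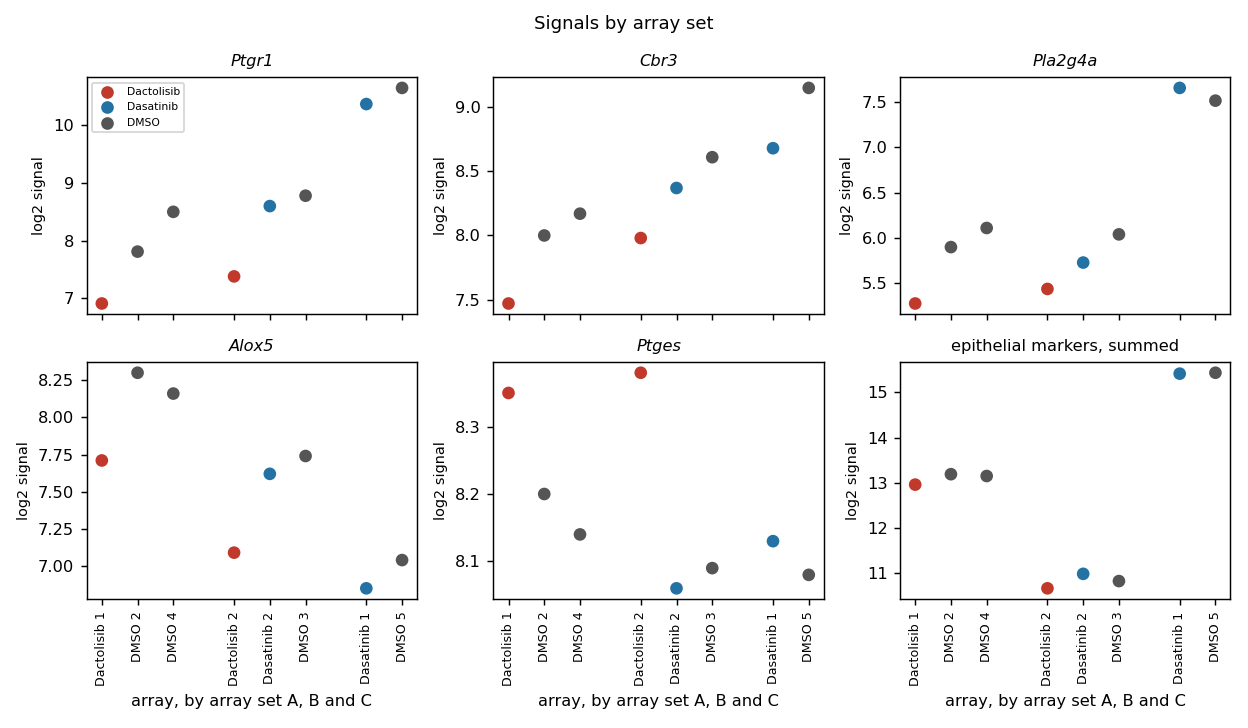
Log2 signal (y axis) on the 8 arrays ordered by array set A, B and C (x axis), with drug arrays left of the DMSO arrays of the set. Ptgr1, Cbr3, Pla2g4a and Alox5 are lower on the Dactolisib array than on each DMSO array of its set and Ptges is higher, while the summed epithelial markers (bottom right) separate the sets.

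The other genes of the 2 routes were read from 4 lists with 78 genes, of which 68 had a single-gene probe set and 57 were tested. Within array sets 5 of the 57 were called lower under Dactolisib and 0 higher, against 4.66% of all genes lower, and 0 were called under Dasatinib. Without the sets 0 were called under either drug. The adjusted p-values below are those of limma within array sets, and the values after ± are its SE.

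The list of arachidonate release and recycling held 2 of these genes among 15 tested, with a median of -0.15. Pla2g4a, the cytosolic phospholipase A2 that releases arachidonic acid, read 5.28 and 5.44 under Dactolisib, 7.65 and 5.73 under Dasatinib, and 5.90, 6.04, 6.11 and 7.51 on DMSO 2 to 5. Both Dactolisib arrays were below every other array, and the difference was -0.67 ± 0.10 (adjusted p = 0.0144). These 2 signals were near background. They lay above the 95th percentile of the receptor probe sets on Dactolisib 1 and 2 (4.96 and 5.19) and below the 99th (5.61 and 6.01). Mboat7, an acyltransferase that returns arachidonic acid to phosphatidylinositol, read 9.51 and 9.41 under Dactolisib, 8.77 and 9.82 under Dasatinib, and 9.99, 9.78, 9.94 and 8.73 on DMSO 2 to 5. It fell within sets by 0.42 ± 0.08 (adjusted p = 0.0271), although DMSO 5 was the lowest array. Lpcat3 (-0.32 ± 0.08, adjusted p = 0.0623), another acyltransferase, and Daglb (-0.58 ± 0.17, 0.0854), a diacylglycerol lipase, did not pass. Daglb was above background on 6 of the 8 arrays, but not on Dactolisib 2 (4.79) or DMSO 3 (5.03).

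Among 19 tested genes of other prostanoid and lipoxygenase enzymes, with a median of -0.01, Cbr3 and Abcc4 were called. Cbr3, a carbonyl reductase, read 7.47 and 7.98 under Dactolisib, 8.68 and 8.37 under Dasatinib, and 8.00, 8.61, 8.17 and 9.15 on DMSO 2 to 5, with a difference of -0.62 ± 0.09 (adjusted p = 0.0139). The 8 arrays stood in the same order by Cbr3 as by Ptgr1, which was noticed after the values were seen. Its Dasatinib difference was -0.36 ± 0.12 and did not pass (adjusted p = 0.85). Abcc4, a transporter that exports prostaglandins, read 5.87 and 5.61 under Dactolisib, 7.32 and 6.10 under Dasatinib, and 6.15, 6.05, 6.17 and 7.74 on DMSO 2 to 5 (-0.36 ± 0.08, adjusted p = 0.0463). On Dactolisib 2 it was below the 99th percentile of the receptor probe sets (6.01). Ptgs2, the inducible cyclooxygenase, outside the rule for named genes and given because Ptgs1 could not be read, had 10.15 and 10.90 under Dactolisib, 10.84 and 11.01 under Dasatinib, and 9.98, 10.95, 10.05 and 10.88 on DMSO 2 to 5. It followed the sets, lowest in set A, and its Dactolisib difference within sets was 0.06 (adjusted p = 0.749).

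Of 12 tested genes of leukotriene conversion, export and breakdown none was called, and their median was -0.05. The lowest p belonged to Cotl1, which encodes an actin-binding protein that also binds 5-lipoxygenase (-0.27 ± 0.08, adjusted p = 0.0827), and Mgst2, which can make leukotriene C4, had -0.30 ± 0.11 (0.153). Among 11 tested receptor genes, with a median of -0.11, Ptgir was called. Ptgir, the prostacyclin receptor, read 6.22 and 6.35 under Dactolisib, 6.43 and 6.98 under Dasatinib, and 6.72, 6.94, 6.89 and 6.94 on DMSO 2 to 5. Both Dactolisib arrays were below every other array, and the difference was -0.59 ± 0.09 (adjusted p = 0.0156). Ltb4r1, the high-affinity leukotriene B4 receptor of neutrophils, had -0.22 ± 0.09 and did not pass (adjusted p = 0.189).

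All 5 of these calls were lost without Dactolisib 1 and without set B, that is without Dactolisib 2 or DMSO 3 (adjusted p = 0.108 to 0.259), and that of Abcc4 also without DMSO 4 (adjusted p = 0.0699). In the fit without the sets their log2 differences were -1.03 for Pla2g4a, -0.15 for Mboat7, -0.76 for Cbr3, -0.79 for Abcc4 and -0.59 for Ptgir, none of them past the threshold. Markers of mast cells and eosinophils, other makers of eicosanoids, were mostly at background, while those of monocytes and macrophages were mostly above it. Cpa3, Mcpt4, Mcpt8, Tpsb2, Ms4a2 and Fcer1a, 6 of 9 mast cell and basophil markers, were above background on no array. Of the others, Cma1, Kit and Gata2, 2 were above it on all 8 arrays. Prg2, Epx, Ccr3 and Il5ra, 4 of 5 measured eosinophil markers, were above background on no array, and 1 of the 5 was above it on all 8. The summed log2 signal of the mast cell and basophil list was 7.90 to 8.02 on Dactolisib arrays, 7.92 to 8.00 on Dasatinib arrays and 7.81 to 8.25 on DMSO arrays. The eosinophil sum was 7.96 to 7.98, 7.58 to 8.17 and 6.94 to 8.10 on the same groups, lowest in set C (Dasatinib 1 at 7.58, DMSO 5 at 6.94). Of 13 measured monocyte and macrophage markers, 11 were above background on all 8 arrays. Their sum was 13.28 to 13.50 on Dactolisib arrays, 13.48 on both Dasatinib arrays and 13.14 to 13.55 on DMSO arrays. In this sum Dasatinib 1 lay 0.34 from DMSO 5. The part of such cells in the enzyme signals was not tested. Platelet genes, which mark another source of lipoxygenase and thromboxane, summed to 9.56 on Dasatinib 1 against 10.89 on DMSO 5, to 9.37 to 9.48 in set B and to 11.94 to 12.05 in set A. On the Dactolisib arrays the platelet sum lay 0.01 and -0.11 from own-set DMSO.

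**Figure D4:**
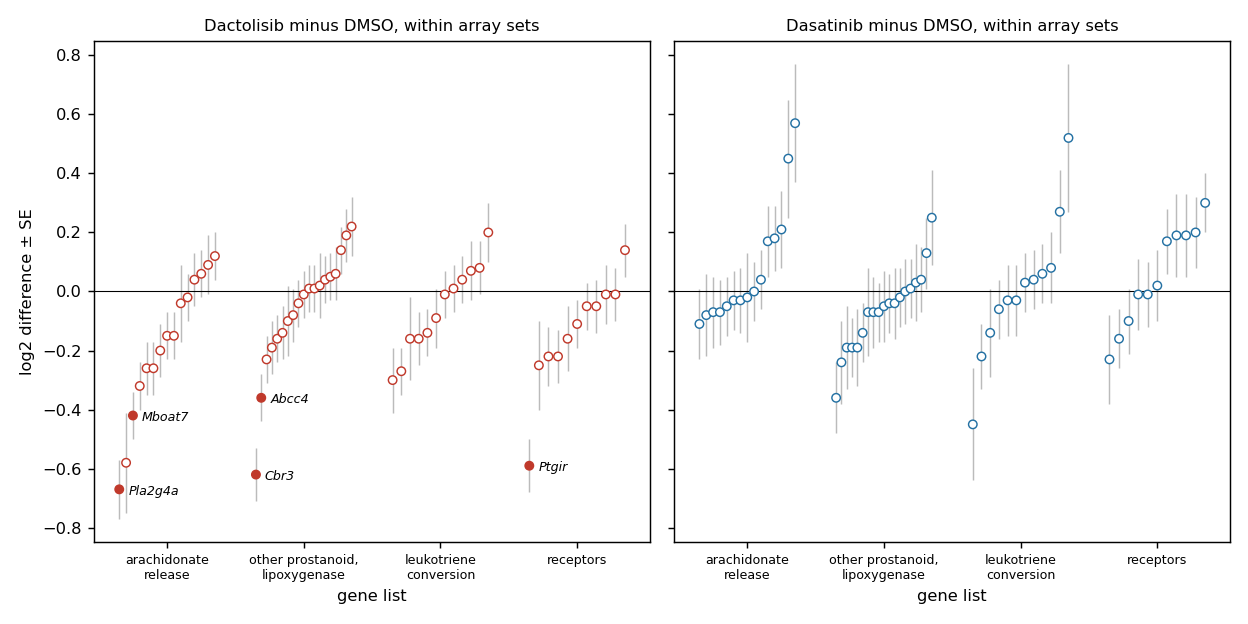
Log2 difference from DMSO with its SE within array sets (y axis) for the 57 tested genes of the 4 lists (x axis), Dactolisib on the left and Dasatinib on the right, with 1 point per gene ordered by size within its list. Filled points passed an adjusted p of 0.05, which 5 named genes did under Dactolisib, all of them lower, and 0 did under Dasatinib.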

How the data were processed

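RNA of the Gr-MDSC samples was hybridised to Affymetrix mouse arrays, and the deposited table gives the authors' log2 signals for 45101 probe sets, with array medians of 4.82 to 4.87, which were used without further scaling. MAS5 is named in the submitters' processing notes and the oligo package in the paper, so the summary method is not settled. The labels name Trizol and the paper RNeasy for the extraction. Treatment was taken from the sample titles, because another label of the Dasatinib samples names Dactolisib.

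Probe sets were joined to genes through the platform table: 34945 have 1 gene, 932 several, 9160 none, and 64 are controls. Probe sets were ranked by mean signal over the 8 arrays, and the top 66.7%, 30024 probe sets, were tested, covering 14237 genes. Where a gene had several probe sets of its own, the brightest on average stands for it in gene counts. Each drug was compared with DMSO on 6 arrays, and the drugs with each other on 8, with limma 3.58.1 in R 4.3.3 (no covariate, as in the methods, Benjamini-Hochberg adjustment over all tested probe sets, threshold 0.05). The alternative used beside it has the array set as a block and leaves 2 residual degrees of freedom in a comparison with DMSO. Sets came from average-linkage clustering of the arrays by Pearson correlation, cut at a given number of 3 sets. The calculation was tested on simulated data. The number of arrays limits the precision.

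The genes, lists and tests were chosen with earlier results of these data known. All listed genes are named, with up to 4 genes of each pathway list and drug by lowest p within array sets, and the 5 genes with the pattern closest to Ptgr1. Sequences and gene positions are those of RefSeq (GRCm38.p6), which matched 10 of 10 listed genes by symbol, and 9 in its promoter table. Other alternatives were quantile normalization, 32 added before log2, no filter, only the brightest probe sets, a trended and robust prior, array weights, all 8 arrays in 1 fit, the methods' t-test, the replicate number as a block for the 2 drugs, and each array left out.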

Additional observations from a re-analysis of the deposited data

Results flagged for a closer look

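The DMSO arrays of 39 probe sets of the listed and pathway genes were examined for 1 array far from the other 3, where chance alone flags about 1 in 20 groups, and 6 were found. DMSO 5 stood apart in Abcc4 (7.74), Cyp4f18 (11.17), Mboat7 (8.73), Pla2g4a (7.51) and Tbxa2r (6.79), and DMSO 3 in Hpgds (7.43), all as log2 signals. DMSO 5 belongs to array set C, where the epithelial markers summed to 15.41 and 15.43. Dasatinib 1, the other array of that set, read 7.32 for Abcc4, 12.28 for Cyp4f18, 8.77 for Mboat7, 7.65 for Pla2g4a and 6.59 for Tbxa2r. The part of epithelial RNA in these signals was not tested.

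In 9 probe sets both Dactolisib arrays lay on one side of own-set DMSO and both Dasatinib arrays on the other. The pathway genes among them were named by low p in these drug comparisons. No share over all probe sets was taken, so nothing is read from this count. For Ptges2 the distances were only -0.02 and -0.03 on Dactolisib 1 and 2 and 0.02 and 0.03 on Dasatinib 1 and 2. The log2 differences between the drugs within array sets (Dactolisib minus Dasatinib) were 0.35 for the dimmest of the 3 tested Ptges probe sets, -0.05 for Ptges2, -0.33 for Cyp4f13, -0.27 for Cysltr2, -0.92 for Daglb, 0.56 for Ephx1, -0.44 for Mboat7, -0.47 for Mgll and -0.33 for Ptgis. Ptgis was above background on 0 of the 8 arrays and Cysltr2 and Ephx1 on 2 each, so their signs are those of signals at or near background. Daglb was above it on 6, and its signals on Dactolisib 2 (4.79) and DMSO 3 (5.03) were below it. None passed limma's test of the difference itself (adjusted p = 0.135 to 0.867).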

How the results depend on the processing

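Without the array sets 0 probe sets were called for Dactolisib against DMSO, Dasatinib against DMSO or Dactolisib against Dasatinib by limma, and 0 by the methods' t-test or under any other setting with all arrays. At an unadjusted p under 0.05 limma gave 868 higher and 1005 lower for Dactolisib, 52 and 58 for Dasatinib, and 459 and 633 between the drugs. With the array set as a block the Dactolisib count was 1919 and 1 of the listed genes' probe sets was called, that of Alox5 (Ptgr1 not counted). With 1 array left out, the Dactolisib count ranged from 0 to 0 without the block and from 0 to 2854 with it (1547 without DMSO 4, 2854 without DMSO 2, and 0 without Dactolisib 1, Dactolisib 2 or DMSO 3), and the count of the listed genes' probe sets from 0 to 1. The Dasatinib counts ranged from 0 to 2 without the block and from 0 to 764 with it, the highest without Dasatinib 2 or DMSO 3, and those between the drugs from 0 to 4 and from 0 to 1118, both highest without Dasatinib 2. The causes were not tested. Under both other background rules 7 genes again counted as expressed. The replicate number as a block, which a drug and DMSO have in common only once and so could be fitted just between the drugs, called 0 probe sets (393 higher and 869 lower at an unadjusted p under 0.05). Samples with the same number deviated together over 2 pairs (r = 0.559 across probe sets), but the labels give no more than the number. Both replicate 2 drug arrays lie in set B, while Dactolisib 1 lies in set A and Dasatinib 1 in set C. This r therefore cannot tell the replicate number from the array set.

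The Dactolisib difference of Ptgr1 was below 0 in the settings run, from -2.17 to -1.10 without the sets and from -1.49 to -1.15 within them, and that of Alox5 from -0.75 to -0.10 and from -0.65 to -0.51. Because this contrast chose Ptgr1, the constant sign of its difference is a description and no support. Settings such as no filter, the trended and robust prior and the methods' t-test leave the difference itself unchanged for both genes. The Dasatinib difference of Ptgr1 was above 0 in 14 of 15 settings without the sets and -0.27 to -0.18 within them, where leaving out 1 array gives only 3 distinct values, since a set missing its drug or DMSO array drops out. With 2 arrays per drug, small differences could be missed.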
